A study of Mus musculus with 20 samples.

Results

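Retinaldehyde dehydrogenases and the genes that handle retinoids around them were followed in tumor cells of a mouse model of prostate cancer bone metastasis. The set held 9 genes of the 17104 listed in any of the 3 deposited expression tables, taken by their mouse symbols: Aldh1a1, Aldh1a2, Aldh1a3, Aldh1a7, Crabp2, Dhrs3, Rdh10, Rarb and Rarg. Aldh1a1 and Aldh1a7 were put in the set because they were higher in resistant tumors, so their levels and changes are given as values without a test.

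MycCaP-Bo cells, a Myc-driven mouse prostate cancer line made bone-homing by rounds of selection in mice, were injected into the heart of male FVB/N mice of 4 to 6 weeks at day -7, and the bone metastases were treated from day 0. The libraries form 4 groups of 5. The naive group received vehicle and the Resist group received the androgen receptor blocker enzalutamide at 30 mg/kg by daily oral gavage for 18 days, by when the tumors were resistant. Resist-Mac tumors were enzalutamide-resistant tumors whose macrophages were depleted with clodronate liposomes, at 1 mg per mouse intravenously and 2 injections a week, over the last 4 days, and Naive-Mac tumors had the same depletion without enzalutamide. CD45-iRFP+ tumor cells of 3 pooled mice made each library, and all groups carry the same cell line, so the libraries are pools from 1 tumor line and not single animals. Resist vs. Naive asked what differs in tumor cells once they no longer respond to the drug, and the comparisons with the depleted groups asked which of these levels differ when macrophages are removed.

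Cells make retinoic acid from vitamin A in steps that can be followed through these genes. Retinol is oxidized reversibly to retinaldehyde, by Rdh10 among others, and Dhrs3 returns retinaldehyde to retinol. Aldehyde dehydrogenases of class 1A, Aldh1a1, Aldh1a2 and Aldh1a3, oxidize retinaldehyde irreversibly to retinoic acid, and the rodent gene Aldh1a7 encodes a close relative of Aldh1a1. Crabp2 carries retinoic acid to the nucleus, where the receptors Rarb and Rarg, paired with retinoid X receptors, bind DNA. Aldh1a1 activity is also widely used as a label of stem-like cells in prostate and other carcinomas.

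Levels are FPKM, fragment numbers scaled to transcript length and to the mapped fragments of the library, which can be set side by side between genes. No read counts accompany them, so the depth behind each value is unknown. Between 12087 and 14056 genes were above 0 in a library. Naive and Resist libraries share a batch label, while Resist-Mac and Naive-Mac libraries each have a batch of their own, so that in every comparison but Resist vs. Naive the batch and the treatment cannot be told apart. Longer transcripts had higher log2 changes: Spearman's rho between length and change, over genes, was 0.155 for the first comparison, Resist vs. Naive, and 0.607 to 0.709 in the other pairs of groups. The median log2 change of all genes was 0.03 for Resist vs. Naive, against -0.02 for Resist vs. Resist-Mac. It reached 0.23 in Naive vs. Naive-Mac and 0.34 in Resist-Mac vs. Naive-Mac. The epithelial markers Krt8 and Cldn4 were present in all 20 libraries, Krt8 at 84.8 to 408 FPKM, whereas Krt18 and Cdh1 did not pass 0.23 FPKM in any library. The 12 macrophage markers summed to 19.0 to 115.6 FPKM in naive, 3.85 to 62.1 in Resist, 39.0 to 888 in Resist-Mac and 5.21 to 539.9 in Naive-Mac libraries. Most of this was Lyz2, at up to 788 FPKM, which neutrophils also express, while the defining genes Adgre1 and Mrc1 were at most 0.52 FPKM. Other genes of this list reached more in Resist-Mac libraries: Cd14 up to 74.73, Itgam 10.97, Ptprc 5.35, Cd68 4.32 and Csf1r 2.1 FPKM. C1qa, C1qb, C1qc and Aif1 did not pass 1.1 FPKM in any library. The summed FPKM of 9 neutrophil markers ran from 176 to 1268 in naive, 61.4 to 602 in Resist, 405 to 8769 in Resist-Mac and 58.6 to 6156 in Naive-Mac libraries. In such bulk libraries fewer cells of a type and less RNA per cell cannot be told apart.

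Aldh1a1 was by far the most abundant of the class 1A dehydrogenases. Its level was 343, 313, 306, 401 and 338 FPKM in the 5 naive libraries, and 739, 660.1, 599.5, 639 and 739 FPKM in the 5 Resist libraries. It was 819, 1316, 1075, 604.04 and 423 FPKM in Resist-Mac and 517, 1105, 423, 454 and 493 FPKM in Naive-Mac libraries. All Resist libraries lay above all naive libraries, and so did all libraries of both depleted groups. The group means were 340.3 ± 37.6 in naive, 598 ± 285 in Naive-Mac, 675 ± 62.1 in Resist and 847 ± 357 FPKM in Resist-Mac tumors (SD, n = 5 each), and in this order the neighbouring groups overlapped except naive and Naive-Mac. By its mean, Aldh1a1 was the 117th most abundant gene in Resist, the 139th in Resist-Mac, the 214th in naive and the 240th in Naive-Mac tumors, so that each depleted group had the higher mean FPKM but the lower place among genes than its undepleted partner. It held 94.5% to 95.8% of the summed FPKM of the 4 class 1A genes in naive libraries and 86.6% to 91.7% in Resist and Resist-Mac libraries.

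Aldh1a7 was lower than Aldh1a1 in every library and differed more between naive and Resist tumors. It was 14.9, 16.3, 13.8, 23.3 and 14.5 FPKM in naive and 96.3, 59.6, 61.2, 86.8 and 70.0 FPKM in Resist libraries. Its level was 105, 129.9, 107, 92.9 and 61.3 FPKM in Resist-Mac and 29.6, 80.9, 30.1, 27.4 and 35.0 FPKM in Naive-Mac libraries. The lowest Resist library stood well above the highest naive library, and the Naive-Mac libraries fell between them except for replicate 2. The group means were 16.6 ± 3.87 in naive, 40.6 ± 22.7 in Naive-Mac, 74.8 ± 16.2 in Resist and 99.3 ± 25.1 FPKM in Resist-Mac tumors (SD, n = 5 each), with naive apart from Naive-Mac and the later neighbours overlapping. The Resist mean was 4.52 times the naive mean, against 1.98 times for Aldh1a1. Both genes had non-overlapping groups, higher in Resist, as did 8.45% of the 10119 genes tested, and nothing is read from these 2 since they were chosen on this contrast.

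**Figure D1:**
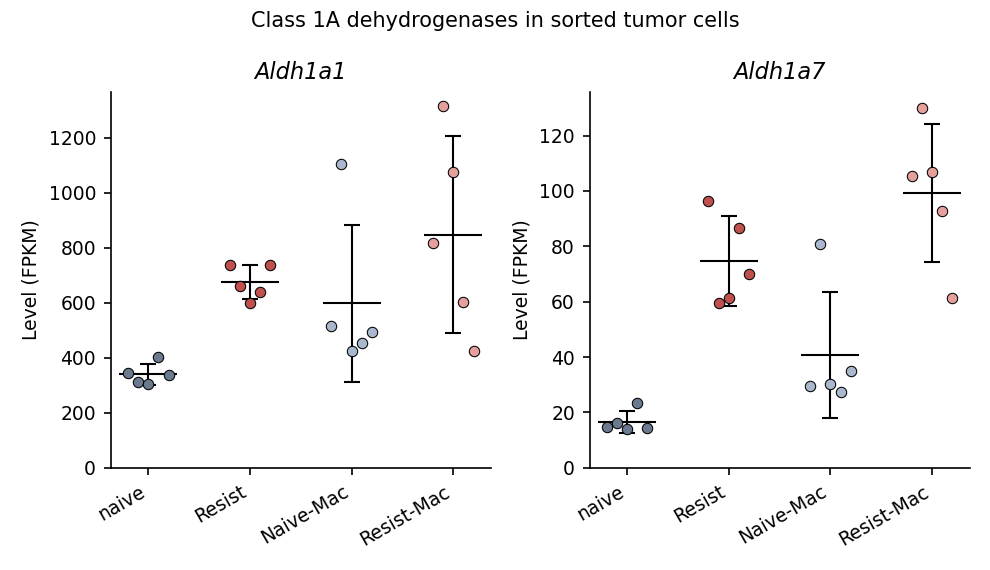
Levels of Aldh1a1 and Aldh1a7 in FPKM on linear axes from 0, with a point for each of the 5 libraries of a group, the mean as a horizontal line and the SD as the error bar. Naive libraries are the lowest for both genes, at 306 to 401 FPKM and 13.8 to 23.3 FPKM, and replicate 2 of Naive-Mac stands above the rest of its group in both panels.

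Aldh1a1 and Aldh1a7 are neighbours on chromosome 19, on opposite strands, with no other protein-coding gene between them in RefSeq's annotation of GRCm38.p6. Of the 9 genes, 6 have an entry in RefSeq's promoter table for that build, with 10 start sites in all. Aldh1a1 has 2 of them, and its downstream start resembles that of Aldh1a7: the 250 bases before each were identical in 68.8% of aligned columns, against 55.4% for the upstream Aldh1a1 start. They are shown because these neighbouring genes share a stretch of sequence just before their starts. Capitals mark their longest exact shared run, 65 bases that lie from 94 to 30 bases before both starts, 5′ to 3′ on the strand of the gene.
Aldh1a1, GRCm38.p6 chr19:20601718-20601967, plus strand: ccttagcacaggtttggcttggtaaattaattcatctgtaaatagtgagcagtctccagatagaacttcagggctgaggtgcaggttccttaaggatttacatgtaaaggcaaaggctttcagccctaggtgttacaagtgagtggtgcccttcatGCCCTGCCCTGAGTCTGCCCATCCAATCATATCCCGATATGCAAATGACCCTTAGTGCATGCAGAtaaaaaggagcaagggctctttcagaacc
Aldh1a7, GRCm38.p6 chr19:20727557-20727806, minus strand: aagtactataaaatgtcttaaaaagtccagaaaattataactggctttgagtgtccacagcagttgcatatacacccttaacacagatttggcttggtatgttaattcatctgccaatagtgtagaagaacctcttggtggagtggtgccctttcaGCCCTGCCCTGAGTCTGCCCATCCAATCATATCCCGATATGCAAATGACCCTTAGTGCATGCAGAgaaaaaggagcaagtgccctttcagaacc

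The transcripts themselves are also alike. The longest protein-coding transcripts in GENCODE, 2358 bases for Aldh1a1 and 2066 bases for Aldh1a7, were identical in 88.3% of aligned columns, against 65.5% and 66.1% for Aldh1a7 with Aldh1a2 and Aldh1a3. Their longest exact shared run was 100 bases. It follows that none of the 1917 windows of 150 bases, the sequenced read length, in the Aldh1a7 transcript occurred whole in that of Aldh1a1. How the authors assigned fragments that match both genes is not given in the sources used here, so a share of the Aldh1a7 level could be Aldh1a1 fragments, both levels are uncertain to that extent, and this was not tested. Relative to Aldh1a1, Aldh1a7 was at 4.29% to 5.80% in naive, 9.03% to 13.6% in Resist, 9.87% to 15.4% in Resist-Mac and 5.72% to 7.32% in Naive-Mac libraries. This percentage was higher in every library from a resistant tumor than in every library from a tumor without enzalutamide. Both genes were chosen for their rise in resistant tumors, so the separation is a description and nothing is read from it. No share of such ratios over other pairs of genes was computed. Summed into 1 row, the pair gave a log2 change of 1.07 in Resist vs. Naive.

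**Figure D2:**
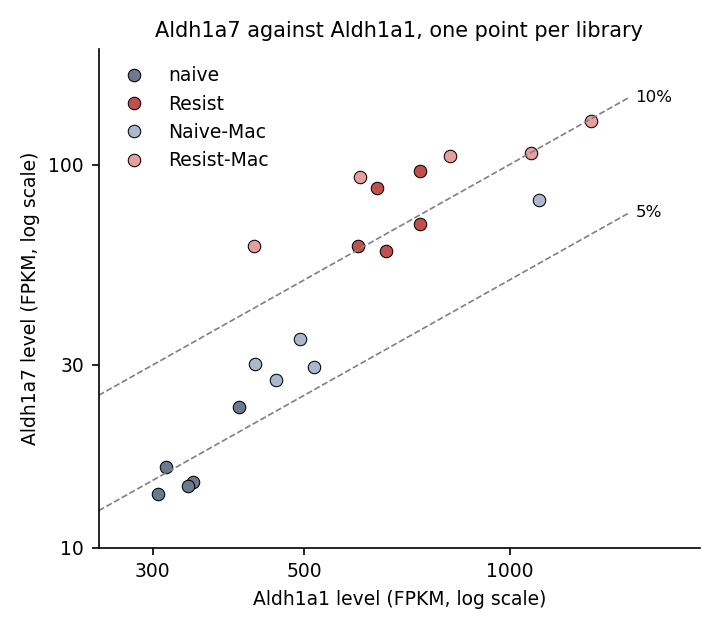
Aldh1a7 level against Aldh1a1 level in FPKM, both on log axes, with 1 point per library, colored by group, and dashed lines where Aldh1a7 is 5% and 10% of Aldh1a1. Resist and Resist-Mac libraries lie at 9.03% to 15.4%, above naive and Naive-Mac libraries at 4.29% to 7.32%.

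Whether the choice of these genes also drew on the depleted resistant tumors is not known, so their values there are given without a test as well. Aldh1a7 was higher in Resist-Mac than in Naive-Mac tumors by 1.36 ± 0.272 on the log2(FPKM + 1) scale (± SE, n = 5 each), although replicate 2 of Naive-Mac, at 80.9 FPKM, exceeded replicate 5 of Resist-Mac, at 61.3 FPKM. The log2 change of Aldh1a1 was 0.49 ± 0.31. It ran from 0.30 to 0.74 with a library left out, the highest without Naive-Mac replicate 2, and from 0.068 to 0.94 under other settings. For Aldh1a7 these ranges were 1.25 to 1.63 and 0.94 to 1.89. As a percentage of Aldh1a1, Aldh1a7 was 12.5% ± 2.54 in Resist-Mac and 6.66% ± 0.728 in Naive-Mac libraries (SD, n = 5 each), without overlap. The summed neutrophil markers of Naive-Mac replicate 2 were the lowest of all 20 libraries at 58.6 FPKM. With their level as a covariate, the log2 change of Aldh1a7 was 1.47 and that of Aldh1a1 0.61.

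On the deposited scale, mean Aldh1a1 and Aldh1a7 were higher in the depleted groups than in their undepleted partners. The log2 change of Aldh1a1 was -0.22 ± 0.25 in Resist vs. Resist-Mac and that of Aldh1a7 was -0.39 ± 0.191. The sign of the Aldh1a1 value depended on the scaling, since it was 0.45 with quantile normalization and 0.0089 with a correction of each library for length and GC content of the transcripts. In Naive vs. Naive-Mac they were -0.72 ± 0.211 for Aldh1a1 and -1.14 ± 0.253 for Aldh1a7, and all naive libraries were below all Naive-Mac libraries for both genes, as they were for 25.3% of the 9837 genes tested. They too depended on the scaling: with the length and GC correction they were -0.07 for Aldh1a1 and -0.34 for Aldh1a7, and quantile normalization gave 0.21 for Aldh1a1. Resist vs. Resist-Mac uses the same Resist libraries as Resist vs. Naive, and Naive vs. Naive-Mac the same naive libraries.

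The other class 1A genes were barely detected. Aldh1a2 had at most 0.25 FPKM and was 0 in 8 of 20 libraries, and Aldh1a3, the class 1A enzyme usually linked to androgen action in prostate epithelium, had at most 0.23 FPKM and was 0 in 9 of 20 libraries. For neither gene did any of the 4 pairs of groups pass an exact permutation test of the means (two-sided and unadjusted), the lowest p being 0.0873 for Aldh1a2 in Resist vs. Resist-Mac, at means of 0.014 and 0.09 FPKM. At this level, and with the depth unknown, a difference may not have been detectable.

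Dhrs3, which reduces retinaldehyde back to retinol and is itself a known target of retinoic acid, was higher in Resist than in naive tumors. It was 13.1, 12.5, 10.7, 14.4 and 11.8 FPKM in naive and 48.6, 42.5, 44.0, 27.6 and 23.5 FPKM in Resist libraries. Its level was 20.6, 29.4, 37.5, 23.0 and 11.7 FPKM in Resist-Mac and 21.2, 31.3, 9.77, 15.6 and 10.85 FPKM in Naive-Mac libraries. Every Resist library exceeded every naive library, as for 8.45% of the 10119 genes tested. The depleted groups spanned the range between and overlapped both. From naive (12.5 ± 1.40) through Naive-Mac (17.8 ± 8.83) and Resist-Mac (24.4 ± 9.67) to Resist (37.2 ± 10.99 FPKM, SD, n = 5 each), each group overlapped the next. The rise in Resist vs. Naive was 1.46 ± 0.177 on the log2 scale (limma adjusted p = 0.000366), where a gene was called past 0.05 for the adjusted p and past 1.5 for the fold.

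Rarg, the retinoic acid receptor gamma of epithelia, was also called, with a higher level in Resist tumors. It was 22.4, 25.4, 23.1, 23.9 and 20.3 FPKM in naive and 53.4, 32.7, 40.5, 36.1 and 29.2 FPKM in Resist libraries. Its level was 27.9, 26.8, 39.4, 25.2 and 23.4 FPKM in Resist-Mac and 6.27, 16.9, 9.13, 10.75 and 8.15 FPKM in Naive-Mac libraries. Naive and Resist libraries did not overlap, with Resist higher, as for 8.45% of the 10119 genes tested. Every Naive-Mac library lay below every library of the other groups, as in 40.7% of genes against naive and 36% against Resist-Mac. The order was Naive-Mac (10.2 ± 4.07), naive (23.0 ± 1.90), Resist-Mac (28.5 ± 6.29) and Resist (38.4 ± 9.37 FPKM, SD, n = 5 each), with overlap between naive and Resist-Mac and between Resist-Mac and Resist. In Resist vs. Naive Rarg rose by 0.69 ± 0.133 on the log2 scale (limma adjusted p = 0.00491), and without Resist replicate 1 the change was 0.56, under the fold of 1.5 (adjusted p = 0.00428).

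Rdh10, the retinol dehydrogenase that feeds this pathway in the embryo, did not pass the test in Resist vs. Naive. It was 7.86, 9.74, 15.3, 8.27 and 8.20 FPKM in naive and 12.9, 12.9, 10.6, 8.17 and 6.56 FPKM in Resist libraries. It ran from 4.70 to 8.32 FPKM in Resist-Mac and from 5.48 to 8.52 FPKM in Naive-Mac libraries. All 4 groups overlapped, with the highest value in naive replicate 3. The log2 change in Resist vs. Naive was 0.05 ± 0.199 (limma adjusted p = 0.893), and its sign turned in 7 of the alternative fits.

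**Figure D3:**
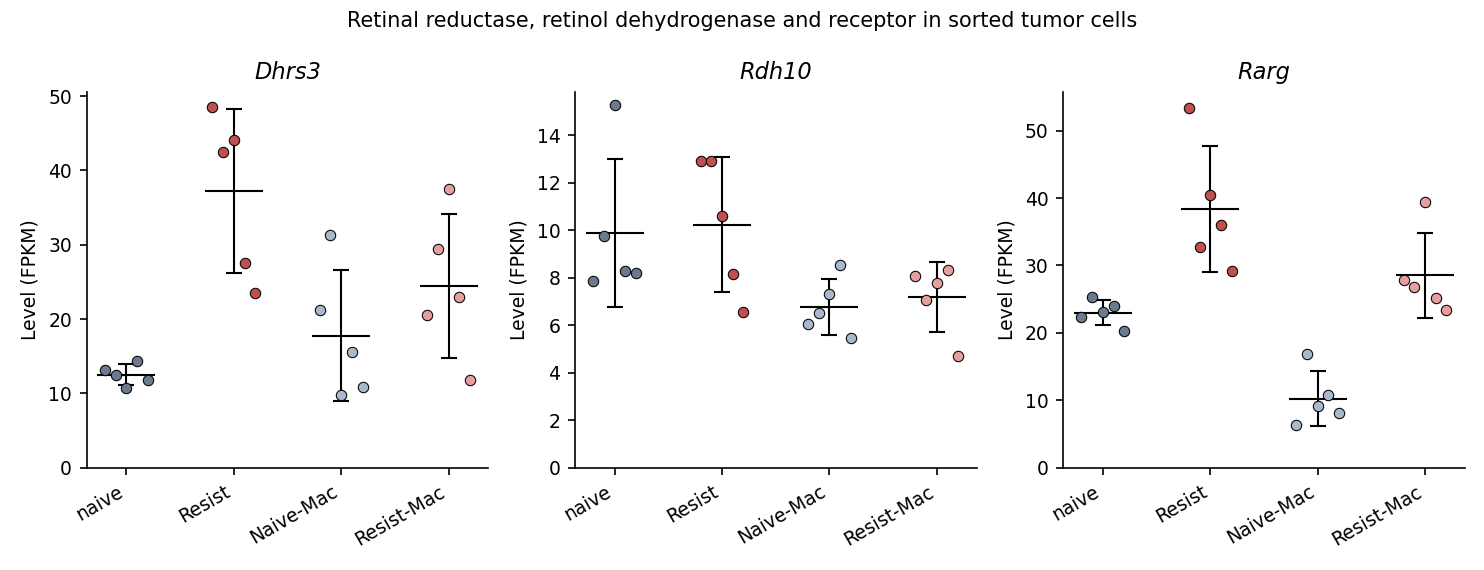
Levels of Dhrs3, Rdh10 and Rarg in FPKM on linear axes from 0, with a point for each of the 5 libraries of a group, the mean as a horizontal line and the SD as the error bar. Resist libraries lie above naive libraries for Dhrs3 and Rarg, all groups overlap for Rdh10, and Naive-Mac is lowest for Rarg at 6.27 to 16.9 FPKM.

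Apart from Aldh1a1 and Aldh1a7, 3 of the remaining 7 genes passed the filter of a mean of 1 FPKM in Resist vs. Naive, and Dhrs3 and Rarg were called, both higher. Across all 10119 genes tested, 6.35% were called in either direction and 5.25% higher. Markers of other kinds moved in the same comparison. The hemoglobin gene Hba-a1, the 1 erythroid marker tested of 8, was called higher in Resist (88.9 and 152.8 FPKM in naive and Resist, adjusted p = 0.0245), and the erythroid markers summed to 54.1 to 108 FPKM in naive and 107 to 200.3 FPKM in Resist libraries. Among 6 tested markers of prostate epithelium, Hoxb13 was called higher (2.66 and 6.54 FPKM, adjusted p = 6.7e-05) and Cldn4 lower (105 and 53.2 FPKM, adjusted p = 0.0451). None of the 4 tested macrophage, 8 neutrophil or 3 osteoblast and stroma markers was called by limma, and 1 of these, Col3a1, had an unadjusted p under 0.05 (log2 change 0.83, adjusted p = 0.115). Other settings, among them the neutrophil marker level as a covariate, gave 1.37 to 1.58 for Dhrs3, called in 13 of 13. For Rarg they gave 0.63 to 0.74, called in 12 of 13. The part of the other markers in the rise of Dhrs3 and Rarg was not tested. In Resist vs. Resist-Mac, where 21.7% of 10049 genes were called, limma called 0 of these 3 genes, while all 3 had an unadjusted p under 0.05, and a noise-distribution method after NOISeq, which the study names, called 0 as well. The log2 changes were 0.63 ± 0.278 for Dhrs3 (adjusted p = 0.0856), 0.44 ± 0.191 for Rdh10 (adjusted p = 0.0816) and 0.41 ± 0.168 for Rarg (adjusted p = 0.0674), each higher in Resist. The value for Dhrs3 moved with single libraries, since it was called at 0.77 without Resist replicate 5 (adjusted p = 0.0439) and at 0.80 without Resist-Mac replicate 3 (adjusted p = 0.0317). With the neutrophil marker level as a covariate the log2 changes were -0.12 for Dhrs3 (adjusted p = 0.81), 0.13 for Rdh10 (adjusted p = 0.753) and 0.12 for Rarg (adjusted p = 0.727).

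In Naive vs. Naive-Mac, where 59.7% of 9837 genes were called and 37.5% called higher, Rarg was called, higher in naive by 1.16 ± 0.191 on the log2 scale (limma adjusted p = 8.7e-05). With the length and GC correction the change was 1.05 (adjusted p = 9.0e-05). Dhrs3 gave -0.36 ± 0.248 (adjusted p = 0.199) and Rdh10 0.46 ± 0.171 (adjusted p = 0.0261, under the fold of 1.5). In Resist-Mac vs. Naive-Mac, where 46.2% of 9760 genes were called and 37.2% called higher, Rarg was again called, at 1.44 ± 0.217 (adjusted p = 8.1e-05), Dhrs3 gave 0.47 ± 0.323 (adjusted p = 0.223) and Rdh10 0.06 ± 0.167 (adjusted p = 0.753). Both Rarg values draw on the same low Naive-Mac libraries.

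The difference between the depletion changes was tested in 1 fit of all 20 libraries, as Resist minus Resist-Mac less naive minus Naive-Mac. It was 0.99 ± 0.40 for Dhrs3 (limma adjusted p = 0.0437) and -0.75 ± 0.269 for Rarg (adjusted p = 0.0236), and -0.02 ± 0.267 for Rdh10 (adjusted p = 0.962). In this fit 40.7% of 9876 genes were called, 8.11% on the side of Dhrs3 and 32.5% on that of Rarg, and the median of all genes was -0.28. The call of Dhrs3 was lost when any of 13 of the 20 libraries was left out, with adjusted p of up to 0.0926, and that of Rarg with median-ratio scaling (-0.42, adjusted p = 0.169) and with quantile normalization (-0.19, adjusted p = 0.559).

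**Figure D4:**
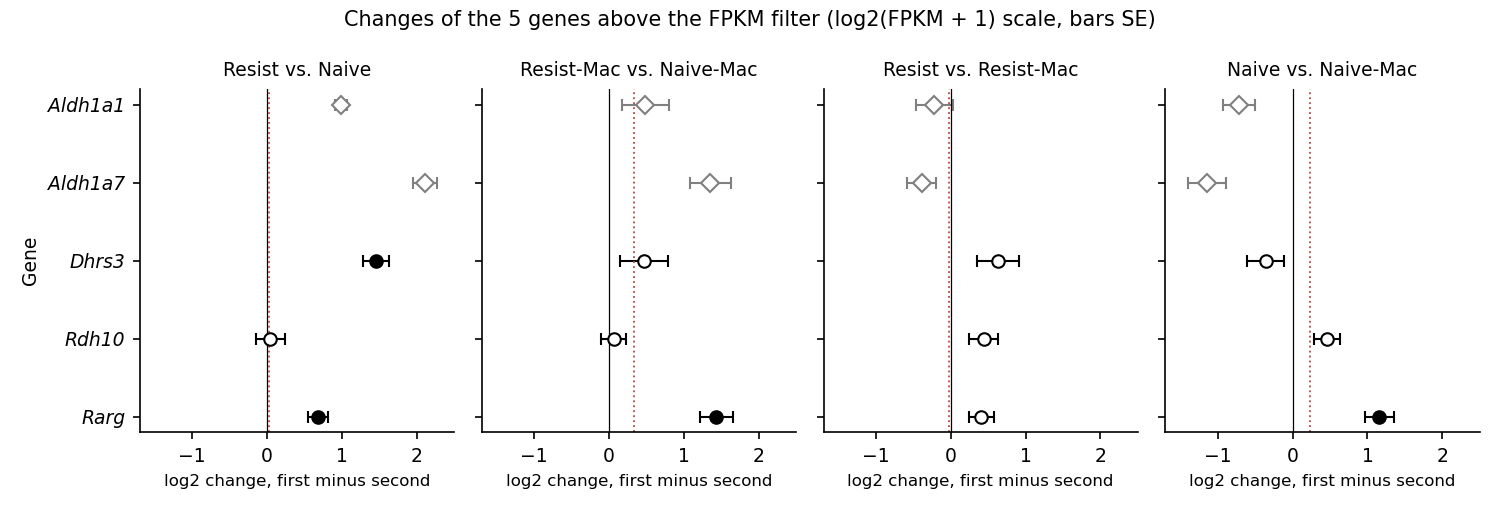
Log2 change, first minus second group on the log2(FPKM + 1) scale, of the 5 genes that passed the filter, with SE bars, in the 4 pairs of groups. Filled circles were called, open circles were not, grey diamonds are values of Aldh1a1 and Aldh1a7 given without a test, and the dotted line is the median of all genes, from -0.02 to 0.34.

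The carrier Crabp2 and the receptor Rarb lay under the filter. Crabp2 was 0.11, 0.23, 0.11, 0.11 and 0.35 FPKM in naive and 0.36, 0.09, 1.09, 0.85 and 0.38 FPKM in Resist libraries, with 4 of 5 Resist libraries above all naive libraries and the remaining one below. The difference in means was 0.372 FPKM (exact permutation test, two-sided and unadjusted, p = 0.0873, n = 5 each). Rarb, a classical target of retinoic acid, was 0 in 13 of 20 libraries and at most 0.33 FPKM, with means of 0.006 FPKM in naive and 0.012 FPKM in Resist tumors. Over these 4 low genes and 4 pairs of groups, 0 of 16 exact permutation tests gave an unadjusted p under 0.05.

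Retinoic acid receptors bind direct repeats of a short half-site. A pair of half-sites, each AGGTCA or a close variant, with 5 bases between them (known as DR5) was searched on both strands in the 250 bases before each start, and likewise with 2 bases between them (DR2). A DR5 occurred in 0.0884% and a DR2 in 0.174% of 32817 such windows from RefSeq's table, with repeated starts and a chromosome left out. Among the 10 start sites of the 6 genes, the Rarb start alone held one, a DR5 whose 17 bases lie 53 to 37 bases before the start. It is shown as the textbook element of the receptor gene that was at or near 0 in these libraries, with the repeat in capitals, 5′ to 3′ on the strand of the gene. A match or its absence in this window describes these letters only.
Rarb, GRCm38.p6 chr14:16575477-16575726, minus strand: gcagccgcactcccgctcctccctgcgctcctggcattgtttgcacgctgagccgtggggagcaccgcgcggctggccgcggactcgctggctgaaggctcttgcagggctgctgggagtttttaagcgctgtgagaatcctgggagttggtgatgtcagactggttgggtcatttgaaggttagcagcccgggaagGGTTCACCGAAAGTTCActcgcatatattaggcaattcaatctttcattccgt

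The rest of the pathway was read from 64 further genes, of which 34 passed the filter in Resist vs. Naive. Of these, 3 were called higher, 2 were called lower and 29 were not called, which is 5 of 34 against 6.35% of all genes tested, with a median log2 change of 0.16 against 0.03 for all genes. Among 6 genes of uptake and storage, Stra6, the membrane receptor that takes up retinol, rose from 36.5 to 64.6 FPKM (log2 change 0.88 ± 0.263, limma adjusted p = 0.0358), although the groups overlapped. The cellular retinol-binding protein Rbp2 fell from 224 to 109.9 FPKM (-1.10 ± 0.185, adjusted p = 0.00226). Lrat, which esterifies retinol for storage, was 0 in 4 of 5 naive and all Resist libraries.

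Among the 10 tested enzymes that interconvert retinol and retinaldehyde, 2 rose and 0 fell by the same rule, against 5.25% of all genes called higher. Adh1, an alcohol dehydrogenase that oxidizes retinol, rose from 214 to 361 FPKM (log2 change 0.72 ± 0.155, adjusted p = 0.00801). Its groups did not overlap, with Resist higher, as for 8.45% of all genes tested. Dhrs7 rose from 17.0 to 27.1 FPKM (0.65 ± 0.104, adjusted p = 0.00169). Rdh11, a retinal reductase first described in prostate, went from 53.8 to 37.8 FPKM, a change of -0.51 ± 0.119 that was under the fold of 1.5 (adjusted p = 0.0119). Its groups did not overlap, and the share of all genes lower in Resist without overlap is not given here. Of the retinoic acid breakdown genes, Cyp2s1 fell from 6.37 to 3.12 FPKM (-0.81 ± 0.156, adjusted p = 0.00457). Cyp26b1, a dedicated retinoic acid hydroxylase, stayed under the filter at 0.182 ± 0.137 in naive and 0.784 ± 0.316 FPKM in Resist tumors (SD, n = 5 each), with an overlap between 0.29 and 0.42 FPKM.

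None of the 10 tested receptors and coregulators beside Rarg was called in Resist vs. Naive. Of these, 9 of 10 had a positive log2 change, with a median of 0.21 against 0.03 for all genes. The share of all genes with a positive change is not given here. The retinoic acid receptor alpha, Rara, gave 0.40 ± 0.138 (limma adjusted p = 0.0585) and Rxra 0.40 ± 0.167 (adjusted p = 0.111). None of the 6 tested response genes was called either, and their log2 changes had a median of 0.13. Among 9 other aldehyde dehydrogenases tested, Aldh3a1, which is active on medium-chain aldehydes, rose from 2.54 to 11.3 FPKM (1.60 ± 0.406, adjusted p = 0.0181) with overlapping groups, and Aldh6a1, a mitochondrial enzyme of valine breakdown, rose from 44.3 to 69.3 FPKM (0.61 ± 0.129, adjusted p = 0.00723). The remaining 7, among them the abundant Aldh2, were not called. Thus 2 of the 9 were called higher and 0 lower, against 5.25% of all genes called higher.

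**Figure D5:**
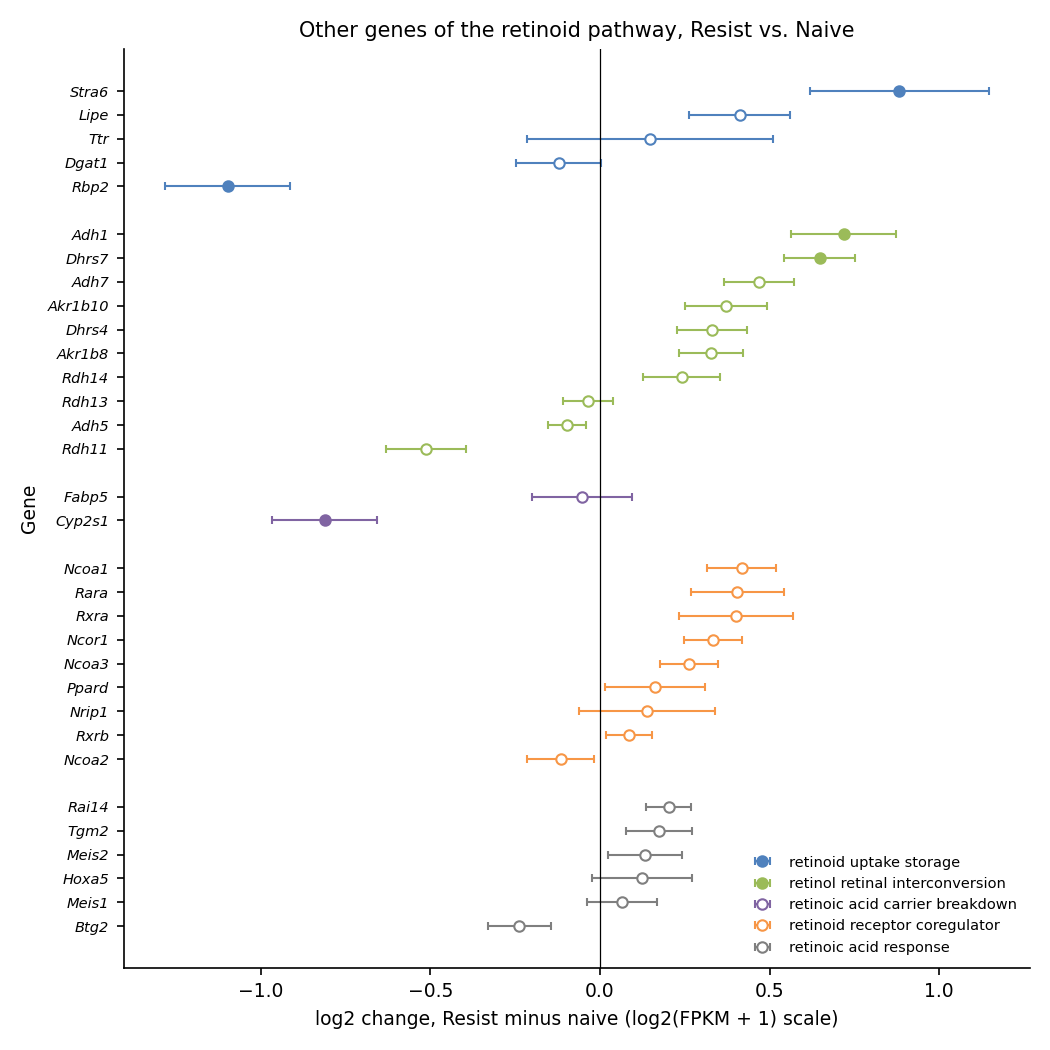
Log2 change in Resist vs. Naive, on the log2(FPKM + 1) scale with SE bars, of 32 of the 34 other retinoid genes that passed the filter, grouped by role. Filled points were called: Stra6, Adh1 and Dhrs7 to the right of 0, and Rbp2 and Cyp2s1 to the left.

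In the comparisons with depleted groups, more of these genes were called, as were more genes of all kinds. In Resist vs. Resist-Mac, 8 of 35 tested genes were called higher and 3 lower, against 21.7% of all genes called in either direction. The share of all genes called higher is not given here. Of the 8, 6 were among the 10 receptors and coregulators. They included the coactivators Ncoa1 (7.46 and 4.09 FPKM, log2 change 0.73 ± 0.103, limma adjusted p = 0.000219) and Ncoa3 (10.8 and 6.29 FPKM, 0.70 ± 0.133, adjusted p = 0.0013). The coregulator Nrip1 was at 21.3 and 8.51 FPKM (1.27 ± 0.284, adjusted p = 0.00357), and Ncoa2 at 13.4 and 7.48 FPKM (0.80 ± 0.191, adjusted p = 0.00513). Fabp5, a fatty acid-binding protein that can carry retinoic acid, went the other way, at 82.8 and 182 FPKM (-1.13 ± 0.176, adjusted p = 0.000412). Among response genes, Rai14 was at 27.2 and 15.7 FPKM (0.76 ± 0.093, adjusted p = 8.5e-05), Tgm2 at 73.6 and 46.5 FPKM (0.67 ± 0.121, adjusted p = 0.000967) and Cebpe, a myeloid transcription factor, at 0.45 and 4.50 FPKM (-1.49 ± 0.549, adjusted p = 0.0435). The neutrophil markers moved with Cebpe, since 6 of 9 were called lower in Resist than in Resist-Mac, and their part in its change was not tested. The longest transcripts of Ncoa1, Ncoa2, Ncoa3 and Nrip1 in GENCODE have 7329 to 8171 bases. Spearman's rho between length and change was 0.642 in this comparison, and the part of length in the changes of these genes was not tested.

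In Naive vs. Naive-Mac, 17 of 34 tested genes were called higher and 8 lower, against 59.7% of all genes called and 37.5% called higher. Of the 10 receptors and coregulators, 9 were higher in naive, among them the corepressor Ncor1 (19.7 and 2.99 FPKM, log2 change 2.38 ± 0.105, limma adjusted p = 5.9e-10). Stra6 was at 36.5 and 11.3 FPKM (1.52 ± 0.252, adjusted p = 9.25e-05). Rbp2 was at 224 and 410.3 FPKM (-0.83 ± 0.14, adjusted p = 0.000105) and Fabp5 at 85.3 and 186 FPKM (-1.12 ± 0.129, adjusted p = 3.0e-06). In Resist-Mac vs. Naive-Mac, 16 of 36 were called higher and 2 lower, against 46.2% of all genes called and 37.2% called higher. Rbp2 was among those called lower, at a log2 change of -1.46 ± 0.156 (adjusted p = 5.2e-06). The longest transcript of Ncor1 in GENCODE has 9037 bases and that of Rbp2 has 803 bases, and the changes of all genes in these comparisons followed transcript length as given above.

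The genes whose levels were most like those of Aldh1a1 and Aldh1a7 were sought among all genes tested in Resist vs. Naive, by Pearson's r of log2(FPKM + 1) over the 10 naive and Resist libraries. Since these libraries form 2 groups, any gene that separates the groups cleanly scores high. For Aldh1a1 the closest was Aldh1a7 (r = 0.98), ahead of Pla1a, Dcps, Rilpl1 and Serping1 (r = 0.965 to 0.975). For Aldh1a7 the closest were Flnc (r = 0.988), Fcgrt, Peli2, Aldh1a1 and Fbxo10. Over the 10 Resist-Mac and Naive-Mac libraries, Aldh1a1 and Aldh1a7 gave r = 0.816. The genes closest to Aldh1a7 gave 0.961 for Fcgrt, 0.892 for Peli2, 0.882 for Flnc and 0.809 for Fbxo10. Those closest to Aldh1a1 gave lower values, 0.773 for Dcps, 0.767 for Serping1, 0.713 for Pla1a and 0.581 for Rilpl1. Fcgrt, the neonatal Fc receptor, was 5.18 in naive, 24.8 in Resist, 25.0 in Resist-Mac and 11.2 FPKM in Naive-Mac tumors by group mean. Its order of naive, Naive-Mac, Resist and Resist-Mac was that of Aldh1a7, with its Resist and Resist-Mac means nearly equal. Dcps and Serping1 had this order too, while Pla1a, Rilpl1, Flnc, Peli2 and Fbxo10 did not. These correlations describe libraries that share batch and group and carry no test.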

How the data were processed

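RNA of sorted tumor cells was enriched with oligo dT and sequenced as read pairs on a BGISEQ-500. The submitters' processing notes name Bowtie2 and mm9. The counting tool and annotation are not given in the sources used here. The authors deposited FPKM for Resist-Mac and Naive-Mac libraries and log2 of FPKM plus 1 for naive and Resist libraries, which was converted back to FPKM. After removal of 752 BGI_novel rows, 16613 of 16733, 14053 of 14077 and 15827 of 15867 Entrez identifiers in the 3 tables were named from RefSeq.

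The 9 genes and all gene lists were chosen with earlier results of these data known. Other pathway genes are named where called or not overlapping in Resist vs. Naive, and otherwise up to 4 called per list with the largest change, and Lrat, Cyp26b1, Rara, Rxra and Aldh2 were added to Resist vs. Naive after their values were seen. limma 3.58.1 in R 4.3.3 was fitted with a variance trend to log2(FPKM + 1), a pseudocount of 1, for genes whose mean over the compared libraries reached 1 FPKM, with Benjamini-Hochberg adjustment over all genes tested. This scale understates changes of low genes. A gene was called past 0.05 for the adjusted p and 1.5 for the fold. Genes under the filter were compared by an exact permutation test (scipy 1.17.1). The tables were normalized separately, so levels across them rest on each table's own scaling. The fits were tested on simulated data. Whether replicates are separate experiments beyond pools of 3 mice is not stated, and p-values measure the spread between libraries. Some genes of the lists are counted but not reported here by name.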

Additional observations from a re-analysis of the deposited data

Results flagged for a closer look

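Of 20 groups of 5 libraries with a mean of at least 1 FPKM, 5 had a library far from the rest by Dixon's ratio (chance gives about 1 in 20). Naive-Mac replicate 2 was high for Aldh1a1 (1105 FPKM) and for Aldh1a7 (80.9 FPKM), naive replicate 4 for Aldh1a7 (23.3 FPKM), naive replicate 3 for Rdh10 (15.3 FPKM) and Resist-Mac replicate 3 for Rarg (39.4 FPKM). By the test of the difference, Resist minus Resist-Mac was above naive minus Naive-Mac for Dhrs3 (log2 0.99) and below it for Rarg (log2 -0.75). Mean Dhrs3 was 37.2 in Resist, 24.4 in Resist-Mac, 12.5 in naive and 17.8 FPKM in Naive-Mac tumors. In this fit 40.7% of genes were called. The call of Dhrs3 was lost without any of 13 of the 20 libraries, and that of Rarg in 3 of 11 other settings. Batch and treatment cannot be told apart here.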

How the results depend on the processing

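Depth is unknown, so counting error cannot be given, and low levels limit Crabp2, Rarb, Aldh1a2 and Aldh1a3. Of the log2 changes of Aldh1a1, Aldh1a7, Dhrs3, Rarg and Rdh10 recomputed under other settings, 549 stayed the same, 25 turned, 22 were no longer called, 4 became called and 5 moved. For Dhrs3, Rarg and Rdh10, the same means the same direction and side of the threshold. For Aldh1a1 and Aldh1a7 no threshold was used: the same means the same direction and a shift under the SD within groups, and moved means a larger shift. Where no reason is named the cause was not tested. The settings were other pseudocounts, filters, scalings and variance models, a length and GC correction, a noise-distribution probability, all groups in 1 fit, the replicate number as a block, the sum of Aldh1a1 and Aldh1a7, each library left out and, chosen after seeing the data, the neutrophil marker level as a covariate.

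Genes called in Resist vs. Naive numbered 643, against 392 with a mean of at least 5 FPKM, 219 with a fold over 2 and 360 with the noise probability. Resist vs. Resist-Mac went from 2181 to 898 with the length and GC correction, 481 with a fold over 2 and 1079 with the noise probability. With the same last settings, Naive vs. Naive-Mac went from 5868 to 3659 and 3627 and Resist-Mac vs. Naive-Mac from 4509 to 2335 and 1455. The difference between depletion changes went from 4015 to 1929 with a fold over 2. Stricter settings call fewer genes by construction.

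Apart from Aldh1a1 and Aldh1a7, the genes of the set called in Resist vs. Naive went from 2 to 1 with a fold over 2, and to 1 or 2 with a library left out. In Resist vs. Resist-Mac they went from 0 to 0 or 1 with a library left out. For Naive vs. Naive-Mac, 1 became 2 under quantile normalization. For the difference between depletion changes, 2 became 0 with a fold over 2, 1 with no filter, median-ratio scaling, quantile normalization, the length and GC correction or the neutrophil covariate, and 1 or 2 with a library left out.

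The change of Rdh10 turned in Resist vs. Naive with quantile normalization (-0.052) and the neutrophil covariate (-0.12), and ran from -0.041 to 0.20 with a library left out. Under quantile normalization it turned in Naive vs. Naive-Mac (-0.094), and Resist-Mac vs. Naive-Mac turned with median-ratio scaling (-0.30) and quantile normalization (-0.56, adjusted p = 0.011). For the difference between depletion changes it turned to 0.29 and 0.47 with these scalings and ran from -0.14 to 0.14 with a library left out. In Resist vs. Resist-Mac, Aldh1a1 turned to 0.45 with quantile normalization and 0.0089 with the length and GC correction, and Dhrs3 to -0.12 with the neutrophil covariate. In Naive vs. Naive-Mac, Aldh1a1 turned to 0.21 with quantile normalization and Dhrs3 to 0.0395 with the length and GC correction.

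Replicate numbers did not pair the libraries: the correlation of deviations was under 0.1 for at least 2 numbers in each pair of groups, and not every library was closest to its own number. With the replicate number as a block, Resist vs. Naive had 624 calls. For Resist vs. Resist-Mac the genes of the set called went from 0 to 1, Dhrs3 at 0.63 (adjusted p = 0.0112).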
